A study of Mus musculus with 6 samples.

Results

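Microtubules are hollow polymers of heterodimers of alpha- and beta-tubulin, and the mouse genome encodes each partner in several closely related genes called isotypes. The isotypes share most of their coding sequence and differ mainly at the acidic C-terminal tail, which lies on the outside of the polymer and carries the modifications known as the tubulin code. *Tuba1b*, *Tuba1c* and *Tubb5* are widely used in dividing cells, *Tuba1a*, *Tubb2a*, *Tubb2b* and *Tubb3* are best known from developing neurons, *Tuba3a* and *Tuba3b* from testis, and *Tubb6* from non-neuronal tissues.

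The genes described here are 10 tubulin isotypes, 5 of alpha-tubulin (*Tuba1a*, *Tuba1b*, *Tuba1c*, *Tuba3a* and *Tuba3b*) and 5 of beta-tubulin (*Tubb2a*, *Tubb2b*, *Tubb3*, *Tubb5* and *Tubb6*), found by gene symbol among the 16279 genes of the bulk RNA-seq tables. All 10 are listed for mouse embryonic stem cells (mESCs) and 9 of them, all but *Tuba3b*, are also listed for cardiac precursor cell cultures (CPCCs). Both cell types carry an F1 hybrid genome, with a C57BL/6J mother and a CAST/EiJ father, and the mESCs are male lines, each derived from a single cell and grown without feeders in medium with LIF and kinase inhibitors. The CPCCs were made from the same mESC lines through embryoid bodies with ascorbic acid and then kept in medium with EGF and Fgf2, so they are mixed cultures and not a sorted cell type. There are 3 libraries of each, named here by their columns as S01, S02 and S03 (mESC) and S04, S05 and S06 (CPCC), because the columns cannot be matched to a clone, and p-values therefore measure the spread between these libraries.

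The mESC libraries held 6442639 to 6907330 counts in total, against 8468819 to 11436062 for the CPCC libraries. Values are given as CPM, counts on a scale of 1000000 per library after TMM scaling, and a log2 fold change is CPCC over mESC, so that 1 is a doubling in CPCCs. Adjusted p-values are those of the edgeR quasi-likelihood test, corrected by Benjamini-Hochberg over 12471 genes, and a gene was called at an adjusted p under 0.05. The labels of the cell types were checked on marker genes. All 10 pluripotency genes were lower in CPCCs, with a summed level of 6934 to 7126 CPM in the mESC libraries and 167 to 450 CPM in the CPCC libraries. Of 12 cardiac genes, 1 was called higher, 3 were not called and 7 were listed for CPCCs but not for mESCs, and their sum was 4.42 to 6.34 CPM in mESCs and 140 to 444 CPM in CPCCs. Most of the CPCC sum came from *Actc1*, with 85.4 to 280.8 CPM, and *Tnnt2*, with 24.0 to 102.6 CPM, while the cardiac factors *Nkx2-5* and *Gata4* had 0 to 1.59 and 1.99 to 5.62 CPM. The remaining one, the cardiac factor *Tbx5*, is listed for mESCs and not for CPCCs. Mesenchymal markers were far more abundant in CPCCs, at 14080 to 21615 CPM in sum against 98.0 to 132.6 CPM, and of the 11 genes, 4 were tested and called higher and 7 were listed for CPCCs and not for mESCs. Library S04 stood apart from the other 2 CPCC libraries, with a chi-square per degree of freedom of 51.2 and 69.6 against S05 and S06. S05 and S06 differed by 14.1. S04 had the highest cardiac sum and the lowest pluripotency sum of the 3. It also had the most counts, and this measure rises with depth. Among the mESC libraries, S03 differed from S01 and S02 by 13.9 and 17.3, where S01 and S02 differed by 4.87. Without S04 all 8 isotypes called below were still called, with log2 fold changes of 2.29 for *Tuba1a*, -0.52 for *Tuba1c*, 1.40 for *Tubb2a* and 2.07 for *Tubb6*, and those of *Tuba1b*, *Tuba3a*, *Tubb3* and *Tubb5* are given beside their results.

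The ends of the coding regions of 4 beta genes are shown because they encode the C-terminal tail, where isotypes differ most. Each is the last 60 coding bases before the stop codon, read 5′ to 3′ from the GENCODE M21 transcripts (GRCm38). Capitals mark bases that differ from *Tubb5* in a gapped alignment of the whole coding regions, not position by position. They include bases opposite a gap in *Tubb5*.
Tubb5: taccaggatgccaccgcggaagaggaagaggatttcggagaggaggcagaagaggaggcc
Tubb2a: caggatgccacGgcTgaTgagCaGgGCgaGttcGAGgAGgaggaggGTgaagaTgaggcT
Tubb2b: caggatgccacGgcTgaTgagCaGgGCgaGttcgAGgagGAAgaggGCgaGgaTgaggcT
Tubb3: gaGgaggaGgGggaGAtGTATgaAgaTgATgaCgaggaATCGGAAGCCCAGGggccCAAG

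The ends of *Tubb2a* and *Tubb2b* differed from that of *Tubb5* at 17 and 18 bases, and the end of *Tubb3* at 32 bases. These counts include bases opposite a gap. Over the whole coding regions the alignments of *Tubb2a*, *Tubb2b* and *Tubb3* to *Tubb5* held 3, 3 and 18 gap bases. All 5 alpha isotypes ended in a tyrosine codon, the residue that is removed and restored in the detyrosination cycle, while the alpha genes *Tuba4a* and *Tuba8*, which are not among the 10, did not.

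Some isotypes were near-identical over the whole coding region. *Tuba1a* and *Tuba1b* were identical at 98.3% of aligned coding bases, *Tuba1b* and *Tuba1c* at 97.9%, *Tuba3a* and *Tuba3b* at 97.0% and *Tubb2a* and *Tubb2b* at 96.5%. *Tubb5* and *Tubb6* were identical at 80.2%. Of all windows of 100 bases along the longest coding transcript, 65.8% in *Tuba1a*, 73.0% in *Tuba1b* and 53.4% in *Tuba1c* were also found in a transcript of another gene, pseudogenes and readthrough transcripts included. The share was 36.9% in *Tubb2a*, 27.7% in *Tubb2b*, 12.3% in *Tuba3a* and 11.8% in *Tuba3b*, and no window of *Tubb3*, *Tubb5* or *Tubb6* was shared. Counts of *Tuba1a*, *Tuba1b* and *Tuba1c* are therefore uncertain as single values where the authors' counting divided such reads, and each is also given as a sum below.

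**Figure D1:**
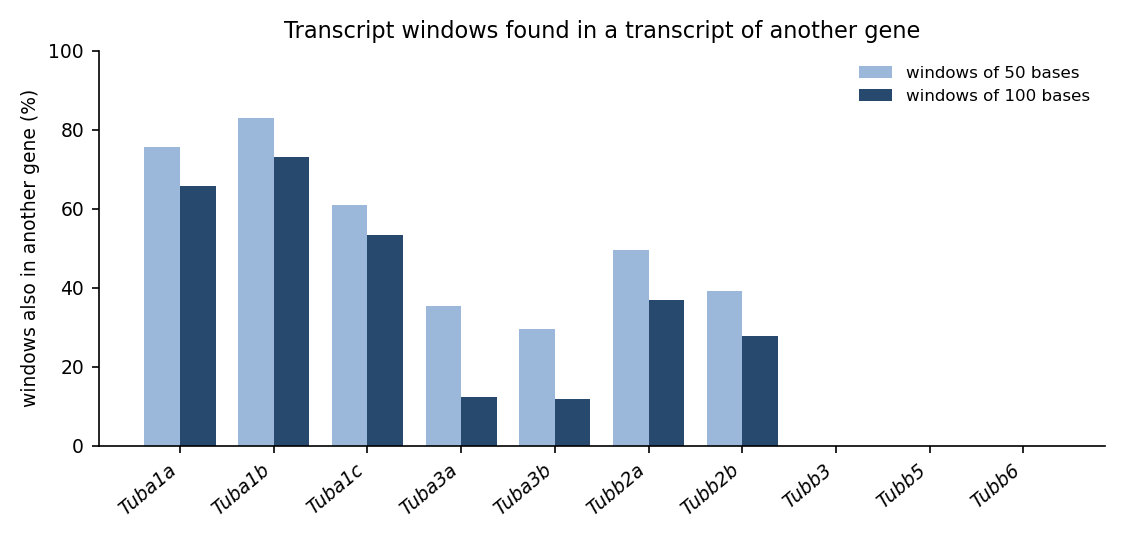
Share of windows along each isotype's longest coding transcript that also occur in a transcript of another gene, in percent, for windows of 50 bases (light bars) and 100 bases (dark bars). The 3 Tuba1 genes stand between 53.4% and 73.0% at 100 bases, and Tubb3, Tubb5 and Tubb6 are at 0 at that length.

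Of the 9 isotypes that could be tested, 8 were called, 4 higher in CPCCs (*Tuba1a*, *Tubb2a*, *Tubb3* and *Tubb6*) and 4 lower (*Tuba1b*, *Tuba1c*, *Tuba3a* and *Tubb5*), and *Tubb2b* was not called. Over all 12471 genes tested, 61.4% were called, 31.7% as higher and 29.7% as lower in CPCCs. The groups of 3 libraries did not overlap for those same 8 isotypes, which was so for 69.7% of all genes tested. The median absolute log2 fold change was 1.23 for the 9 isotypes and 0.97 for all genes tested. In whole-culture RNA, fewer cells that express an isotype and less of it per cell cannot be told apart.

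**Figure D2:**
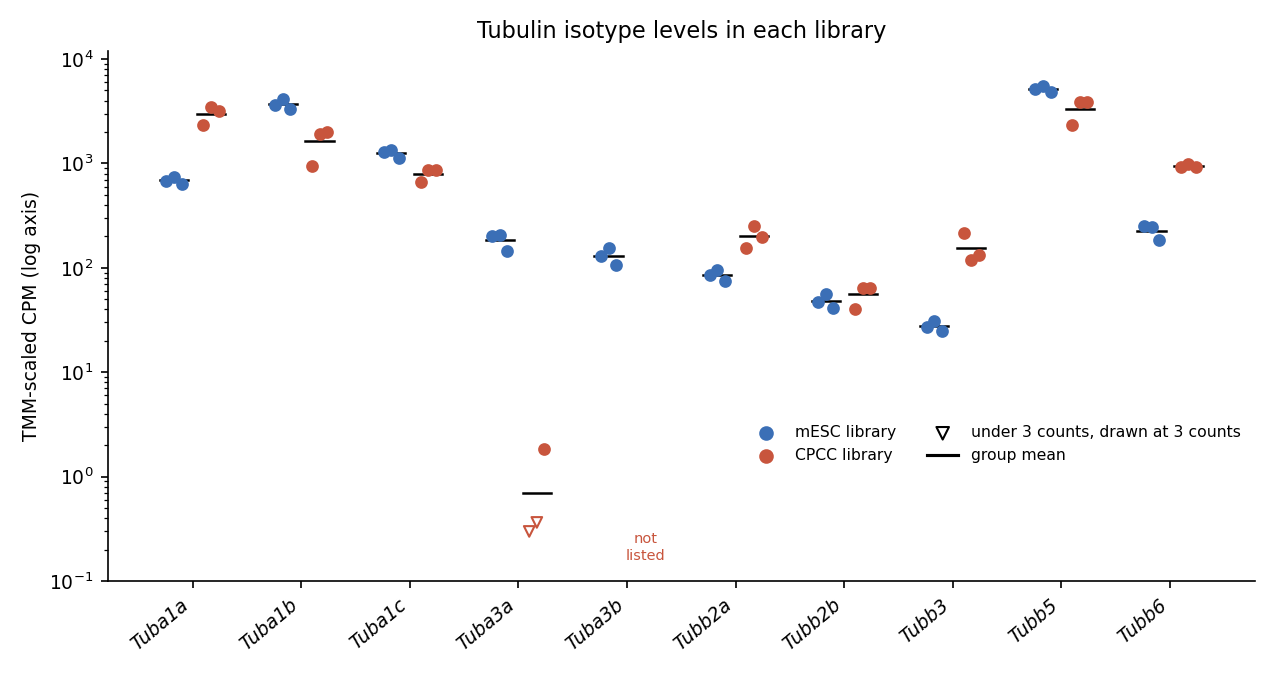
Levels of the 10 isotypes in CPM on a log axis, with 1 point per library (blue mESC, red CPCC) and a black line at the group mean; open triangles are libraries under 3 counts, drawn at the level of 3 counts. Tuba1a stands above Tuba1b in the 3 CPCC libraries and below it in the 3 mESC libraries.

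Among the alpha isotypes, *Tuba1a* was the one that rose. *Tuba1a* (chromosome 15, 98949847 to 98953502, minus strand, 4 exons) is the alpha isotype of differentiating neurons in particular. It had 681, 746 and 637 CPM in S01, S02 and S03, against 2316, 3453 and 3196 CPM in S04, S05 and S06. Every CPCC library was above every mESC library, and S04 was the lowest of the CPCC libraries. Its log2 fold change was 2.12 (SE 0.18, adjusted p = 1.90e-05, edgeR), a 4.35-fold rise.

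*Tuba1b* (chromosome 15, 98931431 to 98934391, minus strand, 4 exons), the main alpha isotype of many dividing cells and the neighbour of *Tuba1a* on the same strand, fell. It had 3621, 4107 and 3322 CPM in the mESC libraries, against 952, 1933 and 2021 CPM in the CPCC libraries. The groups did not overlap, although S04 had less than S05 and S06 by a wide margin. The log2 fold change was -1.17 (SE 0.26, adjusted p = 0.00416, edgeR) with all libraries and -0.88 without S04.

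*Tuba1c* (chromosome 15, 99029891 to 99038106, plus strand, 4 exons), a further widely expressed alpha isotype, had 1284, 1357 and 1125 CPM in mESCs, against 657, 868 and 866 CPM in CPCCs. Again S04 was lowest and the groups did not overlap. Its log2 fold change of -0.66 (SE 0.16, adjusted p = 0.00706, edgeR) is a fall of 1.57-fold.

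The sum of these 3 near-identical genes differed much less between the cell types than its parts. It was 5586, 6210 and 5083 CPM in the mESC libraries, against 3925, 6255 and 6083 CPM in the CPCC libraries, so that the groups overlapped. The log2 fold change of the sum was -0.054 (95% interval -0.49 to 0.38, adjusted p = 0.821, edgeR), and the sum was not called. Without S04 it was 0.15 (adjusted p = 0.268, edgeR), and the CPCC and mESC libraries still overlapped. The ratio of *Tuba1a* to *Tuba1b*, both per transcript length, was 0.182, 0.176 and 0.185 in S01, S02 and S03, against 2.35, 1.73 and 1.53 in S04, S05 and S06. Thus *Tuba1b* was the more abundant of the pair in all 3 mESC libraries and *Tuba1a* in all 3 CPCC libraries, with S04 furthest toward *Tuba1a*. The exact two-sided permutation test over 3 against 3 libraries cannot go below p = 0.10 in any such comparison.

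*Tuba3a* and *Tuba3b*, alpha isotypes best known from testis, were found in mESCs and nearly lost in CPCCs. *Tuba3a* (chromosome 6, 125278270 to 125286082, minus strand, 5 exons) had 200.3, 206 and 146 CPM in the mESC libraries. In the CPCC libraries it had 0, 2 and 16 counts, or 0, 0.243 and 1.83 CPM, so that S04 and S05 lay under the floor of 3 counts used here. The log2 fold change was -8.06 (SE 0.67, adjusted p = 1.68e-05, edgeR), and because it rests on 18 counts in CPCCs it ranged from -7.41 without S04 to -10.51 without S06.

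*Tuba3b* (chromosome 6, 145615963 to 145621478, plus strand, 5 exons) had 130, 153 and 107 CPM in the mESC libraries and is not in the CPCC table, which lists no gene under 10 counts summed over the CPCC libraries. Set at 3 counts in each CPCC library, it would be 387-fold lower in CPCCs. Only the sum over the libraries is limited, so 387-fold is not a strict lower bound. Summed with *Tuba3a*, with its missing values at 0, the pair had a log2 fold change of -8.83 (adjusted p = 1.08e-05, edgeR), which was -11.28 without S06. Both fell while the summed level of 11 germline markers went from 337 to 482 CPM in the mESC libraries to 10.5 to 19.7 CPM in the CPCC libraries. Of the 7 germline markers tested, 6 were lower and 1 was not called, where 29.7% of all genes tested were lower. Of the others, 3 are listed for mESCs and not for CPCCs and 1 for CPCCs and not for mESCs. The part of the germline markers in the result was not tested. The defining germ cell gene *Ddx4* was at 5.30 to 10.2 CPM in mESCs, and *Dazl*, the most abundant of the list, was at 214 to 331 CPM.

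The promoters of these 2 genes are shown because both genes fell so far and because their coding regions are near-identical while the sequences before them are not. Each window runs from 250 bases before to 50 bases after the transcription start (RefSeq, GRCm38.p6), 5′ to 3′ on the gene's strand, with every CG dinucleotide in capitals. The windows are chr6:125286032-125286331 (minus strand) for *Tuba3a* and chr6:145615713-145616012 (plus strand) for *Tuba3b*.
Tuba3a: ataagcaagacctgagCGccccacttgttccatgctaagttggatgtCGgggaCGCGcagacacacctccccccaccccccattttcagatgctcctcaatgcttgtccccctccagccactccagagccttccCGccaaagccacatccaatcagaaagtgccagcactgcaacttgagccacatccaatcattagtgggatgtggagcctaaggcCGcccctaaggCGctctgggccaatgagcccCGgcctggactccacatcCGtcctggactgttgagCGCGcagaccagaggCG
Tuba3b: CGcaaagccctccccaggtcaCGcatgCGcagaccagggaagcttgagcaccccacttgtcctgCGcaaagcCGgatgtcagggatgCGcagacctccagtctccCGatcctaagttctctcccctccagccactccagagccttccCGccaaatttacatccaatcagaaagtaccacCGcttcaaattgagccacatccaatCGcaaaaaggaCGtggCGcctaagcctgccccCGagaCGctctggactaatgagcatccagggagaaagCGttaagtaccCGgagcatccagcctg

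The *Tuba3a* window held 12 CG dinucleotides and the *Tuba3b* window 16, against a median of 7 over 32851 windows of the same length, and 60.4% and 67.0% of all windows held fewer. The 2 windows were identical at 59.6% of aligned bases, far below the 97.0% of the coding regions. Both held the motif CCAAT on at least 1 strand, as did 37.4% of all windows. Neither held TATAAA, which was in 13.6% of windows, or CACGTG, which was in 7.15%. Of the 8 isotypes with a window in the table that could be used, CCAAT was found in *Tuba1a*, *Tuba1c*, *Tuba3a*, *Tuba3b*, *Tubb3* and *Tubb5*, TATAAA in *Tubb2a* and CACGTG in *Tubb5*. *Tuba1b* had the most CG dinucleotides of the 8, with 39, more than 95.6% of all windows.

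Among the beta isotypes, *Tubb6*, *Tubb3* and *Tubb2a* rose and the most abundant one, *Tubb5*, fell. *Tubb5* (chromosome 17, 35833920 to 35838302, minus strand, 4 exons) is the common beta isotype of dividing cells. It had 5108, 5494 and 4787 CPM in the mESC libraries, against 2346, 3857 and 3862 CPM in the CPCC libraries, with no overlap and with S04 lowest. The log2 fold change was -0.61 (SE 0.20, adjusted p = 0.0239, edgeR). The call was lost without S01 (adjusted p = 0.0722) and without S02 (adjusted p = 0.0888), and without S04 the log2 fold change was -0.40.

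*Tubb6*, a beta isotype found in muscle and many other non-neuronal tissues, had 249, 247 and 186 CPM in S01, S02 and S03, against 928, 978 and 916 CPM in S04, S05 and S06. The CPCC libraries lay close together and far above the mESC libraries, and S04 did not stand apart. Its log2 fold change was 2.05 (SE 0.17, adjusted p = 1.42e-05, edgeR), a rise of 4.14-fold. No 100-base window of its transcript is shared with another gene.

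*Tubb3* (chromosome 8, 123411564 to 123422011, plus strand, 4 exons) encodes the beta isotype used as a marker of neurons. It had 27.4, 30.8 and 24.9 CPM in the mESC libraries, against 215, 119 and 133 CPM in the CPCC libraries. The groups did not overlap, and here S04 was the highest CPCC library. The log2 fold change of 2.49 (SE 0.26, adjusted p = 5.16e-05, edgeR) was the largest rise among the isotypes with all libraries. Without S04 it was 2.20, below the 2.29 of *Tuba1a*.

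The other neuronal markers did not move as one group beside *Tubb3*. Of 14 neuronal genes 10 were tested, and 61.4% of all genes tested were called. Of the 10, 3 were higher (*Gap43*, *Map2* and *Elavl3*), 1 was lower (*Mapt*) and 6 were not called. The other 4 were listed for CPCCs and not for mESCs (*Snap25*, *Syp*, *Syt1* and *Dcx*). The summed level of the 14 was 608 to 621 CPM in mESCs and 716 to 864 CPM in CPCCs. Of this, *Stmn2* alone gave 388 to 409 CPM in mESCs and 406 to 683 CPM in CPCCs. *Rbfox3*, which marks mature neurons, was at 1.32 to 2.21 CPM in mESCs and 1.59 to 2.52 CPM in CPCCs. The part of neuronal cells in the level of *Tubb3* was not tested.

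*Tubb2a* (chromosome 13, 34074280 to 34078009, minus strand, 4 exons) and *Tubb2b* (chromosome 13, 34127008 to 34130355, minus strand, 4 exons) are a pair of beta isotypes prominent in the nervous system. *Tubb2a* had 85.2, 95.7 and 75.5 CPM in mESCs, against 155, 249 and 198 CPM in CPCCs, with no overlap, and its log2 fold change was 1.23 (SE 0.21, adjusted p = 0.000849, edgeR). *Tubb2b* had 47.3, 56.7 and 41.1 CPM in mESCs, against 40.2, 63.9 and 63.9 CPM in CPCCs. S04 had less than any mESC library and S05 and S06 had more than any. Its log2 fold change of 0.21 (95% interval -0.31 to 0.74, adjusted p = 0.453, edgeR) was not called. Without S04 it was 0.42 (adjusted p = 0.0693, edgeR), and leaving out the other libraries in turn gave 0.11 to 0.34, none of them called. Per transcript length, *Tubb2a* stood to *Tubb2b* at 2.44, 2.29 and 2.49 in the mESC libraries and at 5.24, 5.28 and 4.20 in the CPCC libraries, which did not overlap. The sum of the pair rose by 0.94 on the log2 scale (adjusted p = 0.00364, edgeR).

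**Figure D3:**
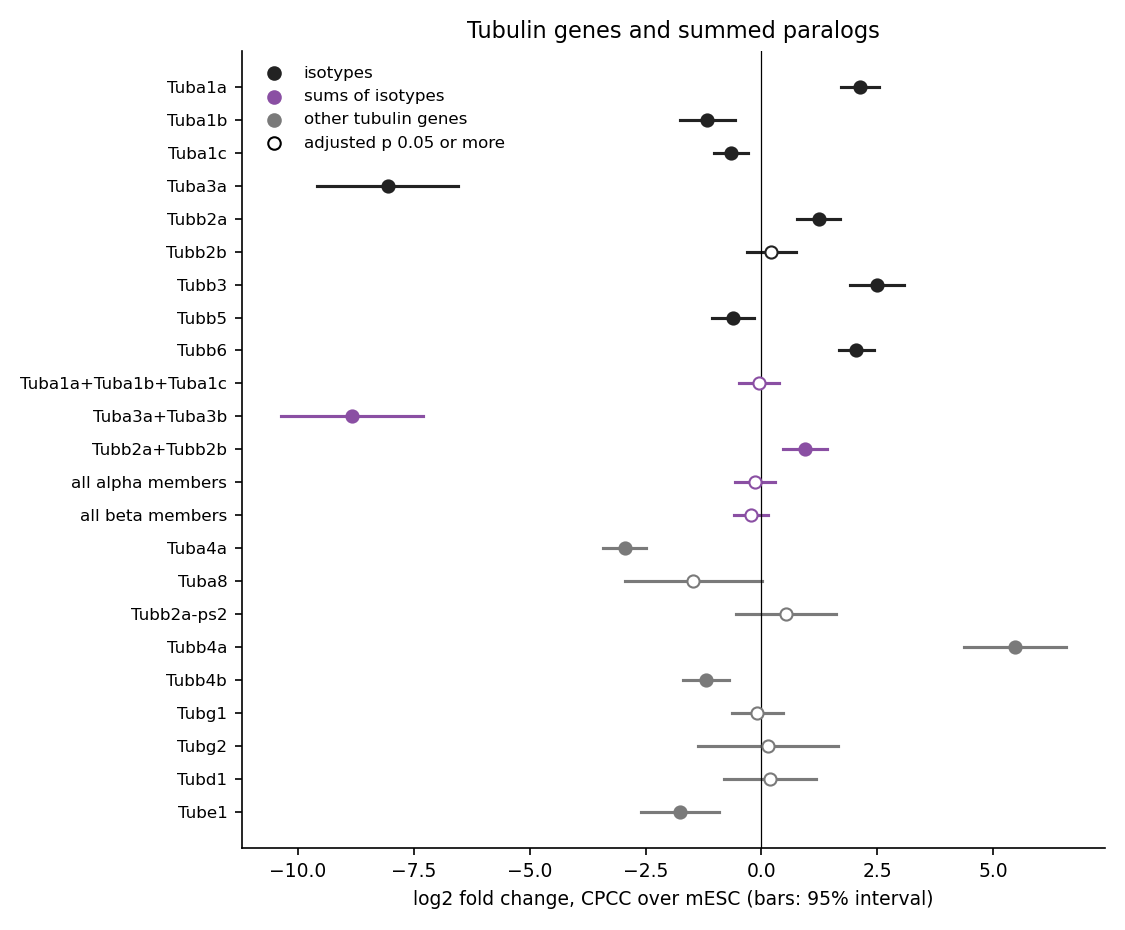
Log2 fold changes of CPCC over mESC (points) with 95% intervals (bars) for the 9 tested isotypes (black), for sums of isotypes (purple) and for the other tubulin genes (grey); open points have an adjusted p of 0.05 or more. The sum of Tuba1a, Tuba1b and Tuba1c lies at -0.054 although its parts lie at 2.12, -1.17 and -0.66.

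The alpha isotypes together differed less than most single isotypes. All 5 summed to 5941 ± 617 CPM in mESCs (SD, n = 3), against 5422 ± 1299 CPM in CPCCs (SD, n = 3), with a log2 fold change of -0.13 (95% interval -0.56 to 0.30, adjusted p = 0.574, edgeR). The 5 beta isotypes summed to 5518 ± 404 CPM in mESCs (SD, n = 3), against 4708 ± 887 CPM in CPCCs (SD, n = 3), with a log2 fold change of -0.23 (95% interval -0.60 to 0.14, adjusted p = 0.256, edgeR). Neither of these sums was called, and the libraries of the cell types overlapped in both. Without S04 the log2 fold changes were 0.068 for the alpha sum and -0.067 for the beta sum, again not called. S04 had the lowest sum of all 10 isotypes, with 7610 CPM, while S05 and S06 had 11521 and 11259 CPM and the mESC libraries 10451 to 12492 CPM. The isotypes together made up 1.15%, 1.25% and 1.03% of all counts in the mESC libraries S01 to S03, against 0.669%, 1.12% and 1.16% in the CPCC libraries S04 to S06. With *Tubb4a* and *Tubb4b* added to the 5 beta isotypes, the beta sum was 6724 to 7936 CPM in the mESC libraries, against 4243 to 6213 CPM in the CPCC libraries, with no overlap. Its log2 fold change was -0.41 (95% interval -0.80 to -0.024, adjusted p = 0.0624, edgeR), which was not called. Leaving out S06 gave -0.49 and a call (adjusted p = 0.0468, edgeR), and leaving out S04 gave -0.24 and no call (adjusted p = 0.0658, edgeR). With *Tuba4a* and *Tuba8* added, the alpha sum still overlapped between the cell types and was not called, with a log2 fold change of -0.20 (adjusted p = 0.386, edgeR), and -0.0018 without S04. Per transcript length, all alpha genes stood to all beta genes at 1.03, 1.06 and 1.03 in the mESC libraries and at 1.09, 1.22 and 1.21 in the CPCC libraries, which did not overlap.

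Levels of different isotypes were compared per transcript length, as CPM per kilobase. In mESCs the order was *Tuba1b* (2113), *Tubb5* (1936), *Tuba1c* (633), *Tuba1a* (381), *Tubb6* (129), *Tuba3a* (122), *Tuba3b* (73.2), *Tubb2a* (53.1), *Tubb2b* (22.2) and *Tubb3* (14.8), as means of 3 libraries in CPM per kilobase. The ranges of *Tuba1b* and *Tubb5* overlapped, as did those of *Tubb6* and *Tuba3a*, and all other neighbours were apart. In CPCCs the order was *Tuba1a* (1658), *Tubb5* (1266), *Tuba1b* (938), *Tubb6* (535), *Tuba1c* (402), *Tubb2a* (125), *Tubb3* (83.3), *Tubb2b* (25.7) and *Tuba3a* (0.459), in the same unit. There the ranges of the first 4 overlapped from each to the next, as did those of *Tubb2a* and *Tubb3*.

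Isotype shares were computed within each family from the counts of the isotypes in each library, with the unlisted *Tuba3b* at 0 in CPCCs. *Tuba1a* made up 11.5%, 11.4% and 11.9% of alpha counts in the mESC libraries, against 59.0%, 55.2% and 52.5% in the CPCC libraries. *Tuba1b* made up 61.2%, 62.5% and 62.2% in mESCs, against 24.3%, 30.9% and 33.2% in CPCCs. In each CPCC library *Tuba1a* was thus the majority of the alpha counts, as *Tuba1b* was in each mESC library. *Tuba1c* went from 21.1% ± 0.528 (SD, n = 3) to 15.0% ± 1.56 (SD, n = 3). *Tuba3a* and *Tuba3b* made up 3.09% ± 0.329 and 2.18% ± 0.165 of alpha counts in mESCs (SD, n = 3), and *Tuba3a* 0.0113% ± 0.0164 in CPCCs (SD, n = 3).

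*Tubb5* made up 92.6%, 92.7% and 93.6% of beta counts in the mESC libraries, against 63.7%, 73.2% and 74.7% in the CPCC libraries. *Tubb6* made up 4.52%, 4.16% and 3.64% in mESCs, against 25.2%, 18.6% and 17.7% in CPCCs. In S04 the share of *Tubb5* was lowest and that of *Tubb6* highest. *Tubb3* went from 0.501% ± 0.0169 to 3.56% ± 1.99, a difference of 3.06 percentage points that was 1.91 without S04, *Tubb2a* from 1.55% ± 0.0684 to 4.26% ± 0.453 and *Tubb2b* from 0.872% ± 0.0784 to 1.18% ± 0.0779 (each SD, n = 3). All 10 shares were apart between the cell types, each with p = 0.10 in the exact two-sided permutation test, which is the smallest that 3 against 3 libraries allow, and with an adjusted p of 0.10 over the 10 shares. Per transcript length, the shares of *Tubb2b* overlapped (p = 0.20 in the same exact test). Shares in a family add to 100% in each library, so they do not move independently.

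**Figure D4:**
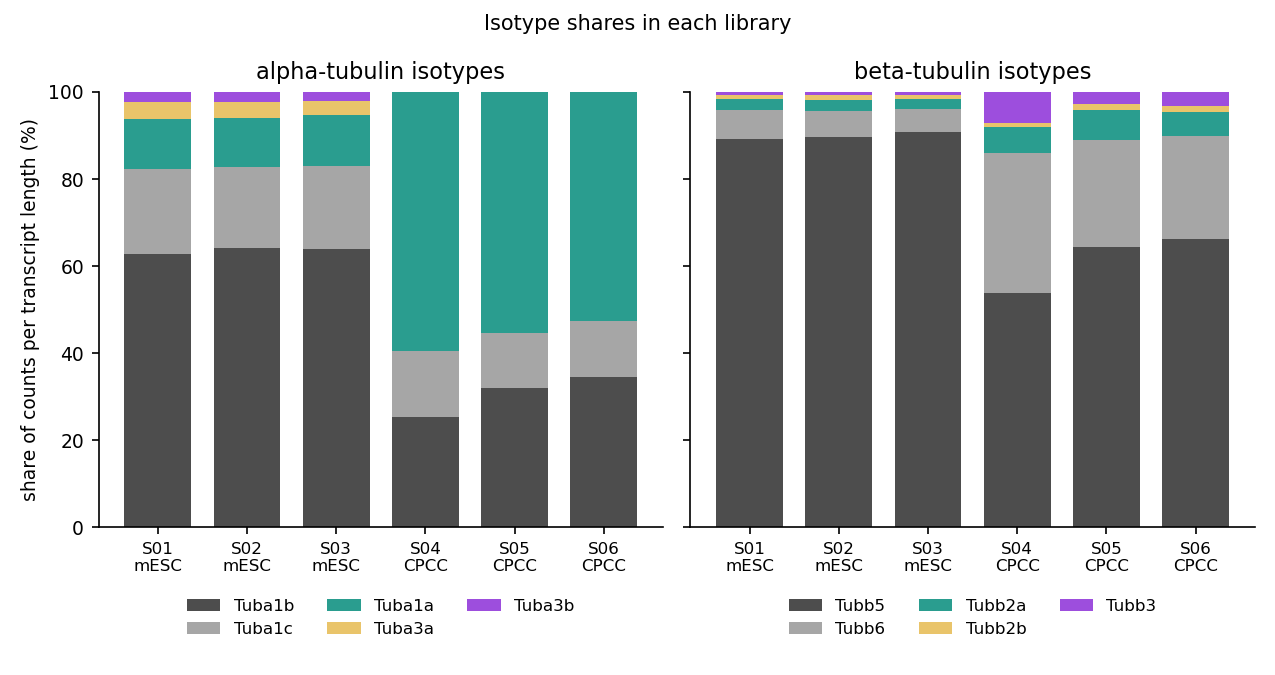
Shares of the 5 alpha (left) and 5 beta (right) isotypes per transcript length in each library, in percent of the family; each bar is 1 library. Tuba1a fills 52.6% to 59.4% of the bar in CPCC libraries and 11.2% to 11.8% in mESC libraries, and Tubb6 fills 23.7% to 32.1% against 5.32% to 6.56%.

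The tubulin genes outside the 10 also moved in both directions. *Tuba4a*, an alpha isotype with no encoded tyrosine at its end, had 382, 338 and 295 CPM in mESCs, against 35.3, 43.4 and 52.4 CPM in CPCCs. Its log2 fold change was -2.95 (SE 0.20, adjusted p = 6.50e-06, edgeR). Part of its transcript overlaps *Stk16* on the opposite strand, and the counting is not stated to use strand. *Tubb4b*, a widely expressed beta isotype, had 1873, 2013 and 1609 CPM in mESCs, against 536, 918 and 941 CPM in CPCCs, and its log2 fold change was -1.20 (SE 0.22, adjusted p = 0.00150, edgeR). *Tubb4a*, a beta isotype of brain, was nearly undetected in mESCs with 2, 2 and 6 counts and had 22.6, 29.0 and 16.2 CPM in CPCCs, and its log2 fold change of 5.46 (SE 0.49, adjusted p = 2.35e-05, edgeR) rests on 10 counts in mESCs. The groups did not overlap for any of these 3 genes.

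The gamma-tubulins *Tubg1* and *Tubg2*, which nucleate microtubules, and the delta-tubulin *Tubd1* of the centriole were not called, with log2 fold changes of -0.09, 0.13 and 0.19. *Tube1*, the epsilon-tubulin of the centriole, fell by 1.76 on the log2 scale (SE 0.37, adjusted p = 0.00306, edgeR). *Tuba8* was at 77 counts over the mESC libraries and 36 over the CPCC libraries and was not called (adjusted p = 0.077, edgeR), nor was the pseudogene *Tubb2a-ps2* (adjusted p = 0.358, edgeR). Adding *Tuba4a* and *Tuba8*, the alpha genes that encode a last tyrosine made up 96.1%, 96.8% and 96.6% of alpha-tubulin CPM per kilobase in the mESC libraries, against 99.4%, 99.5% and 99.4% in the CPCC libraries. With all tubulin genes of the family counted, *Tubb5* was 69.8% ± 1.16 of beta counts in mESCs and 60.1% ± 4.22 in CPCCs, and *Tubb4b* was 24.9% ± 0.823 and 14.3% ± 1.43 (each SD, n = 3).

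The genes that fold, nucleate, bind, sever and modify tubulin were taken as 6 lists with the other tubulins, and 58.9% of their 107 tested genes were called, 31 higher and 32 lower, against 61.4% of all genes. The lists differed in direction. Of 8 other tubulins tested, 1 was higher and 3 were lower, with a median log2 fold change of -0.64, and the median over all genes tested was 0.03. *Tubal3* and *Tubb1* are in neither table.

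Of 23 tubulin folding genes, 10 were lower, 1 was higher and 12 were not called, with a median log2 fold change of -0.26. All 8 subunits of the chaperonin CCT, which folds newly made tubulin and actin, were among those lower, against 29.7% of all genes tested. Of these subunits *Cct7* (-1.35, SE 0.15), *Cct2* (-1.30, SE 0.16) and *Cct3* (-1.21, SE 0.17) fell furthest and *Cct5* least (-0.57, SE 0.15). The summed level of the list was 7554 to 7942 CPM in the mESC libraries and 4219 to 4598 CPM in the CPCC libraries. *Pdcl3*, a cochaperone of CCT, was the one that rose (log2 fold change 1.09, SE 0.31, adjusted p = 0.0133, edgeR). None of the tubulin-specific cofactors *Tbca*, *Tbcb*, *Tbcc*, *Tbcd* and *Tbce* was called.

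Of 20 nucleation genes, 10 were lower, 2 were higher and 8 were not called, with a median log2 fold change of -0.63. Of the 8 subunits of augmin, the complex that branches new microtubules from the spindle, 6 were lower, against 29.7% of all genes tested. The largest falls of the list were *Haus4* (-3.30, SE 0.26), *Haus1* (-2.38, SE 0.26) and the pericentriolar scaffold *Pcnt* (-1.82, SE 0.32). The rises were *Nedd1* (0.76, SE 0.23), which recruits gamma-tubulin, and *Akap9* (0.75, SE 0.17), a scaffold of the centrosome and Golgi, on the log2 scale.

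The microtubule-associated proteins went mostly the other way. Of 25 tested, 16 were higher, 4 were lower and 5 were not called, with a median log2 fold change of 1.00, and *Dcx*, *Dclk1*, *Clip2* and *Mid2* were listed for CPCCs and not for mESCs. The largest rises were the plus-end binding protein *Mapre3* (4.42, SE 0.53), the lattice-binding *Map2* (3.76, SE 0.52) and *Map1b* (3.47, SE 0.15). *Map1b* stood at 47.8, 48.6 and 44.5 CPM in mESCs, against 530, 521 and 512 CPM in CPCCs, with little spread in either group. The largest falls were *Mapt*, which encodes tau (-3.56, SE 0.30), the kinesin-1 cofactor *Map7* (-3.42, SE 0.57) and its relative *Map7d2* (-1.96, SE 0.33), on the log2 scale.

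Of 11 destabilizing and severing genes tested, 4 were lower, 2 were higher and 5 were not called, with a median log2 fold change of -0.24. *Katnal1*, a katanin-like severing subunit, rose (3.52, SE 0.65), as did the depolymerizing kinesin *Kif2a* (0.46, SE 0.16), whereas the mitotic kinesins *Kif2c* (-1.84, SE 0.32) and *Kif18a* (-1.34, SE 0.31) and the fidgetin-like *Fignl1* (-1.16, SE 0.26) fell, on the log2 scale. *Stmn1*, which sequesters tubulin dimers, had 282, 270 and 245 CPM in mESCs, against 87.4, 190 and 216 CPM in CPCCs and was not called. *Stmn4* and *Fign* were listed for CPCCs and not for mESCs.

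Of 20 tubulin-modifying enzymes tested, 9 were higher, 1 was lower and 10 were not called, with a median log2 fold change of 0.63. The largest rises were the glutamylase *Ttll7* (4.22, SE 0.39), the detyrosinase *Vash2* (2.89, SE 0.42) and *Ttll9* (2.13, SE 0.62), a member of the same ligase family as *Ttll7*. The fall was *Ttll3*, an initiating glycylase (-2.25, SE 0.37), on the log2 scale. The tyrosine ligase *Ttl*, which restores the last residue of the alpha isotypes, had 37.1, 51.4 and 38.3 CPM in mESCs, against 30.3, 42.0 and 36.1 CPM in CPCCs and was not called, and the acetyltransferase *Atat1* rose by 1.05 on the log2 scale (SE 0.26, adjusted p = 0.00701, edgeR). Among ligases and deglutamylases in a single table, *Ttll6* and *Ttll13* were listed for mESCs and *Ttll11* and *Agbl2* for CPCCs.

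**Figure D5:**
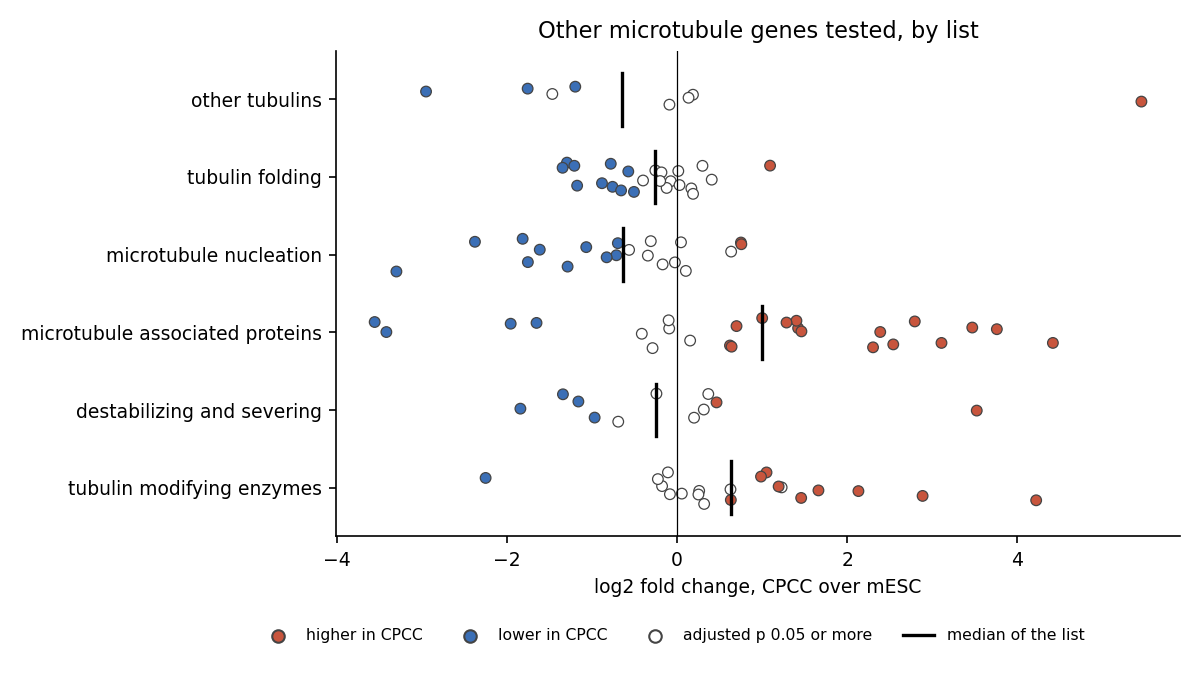
Log2 fold changes of CPCC over mESC for each tested gene of the 6 lists, with 1 point per gene (red higher, blue lower, white not called) and a black line at the median of the list. The median of microtubule-associated proteins lies at 1.00 and that of nucleation genes at -0.63.

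Markers of ciliated cells, in which several of these enzymes act, were low in both cell types, with a sum of 10.2 to 15.8 CPM in mESCs and 4.48 to 7.11 CPM in CPCCs over 12 symbols, of which 8 are listed. Of the 3 tested, 2 were lower and 1 was not called, where 29.7% of all genes tested were lower. The defining factor *Foxj1*, listed for CPCCs and not for mESCs, was at 0.696 to 1.46 CPM in CPCCs.

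The genes with the most similar pattern were found for the isotypes with the largest rise and the largest fall among the 9 listed in both tables, which leaves out *Tuba3b*, as the smallest root mean square difference of log2 CPM centred over the 6 libraries, among 12470 other genes. For *Tubb3* these were *Pi4k2b* (difference 0.11), *S100a10* (0.14) and *Cgnl1* (0.14), with log2 fold changes of 2.57, 2.50 and 2.38. For *Tuba3a* they were *Tfcp2l1* (0.48), a pluripotency factor, *Fam25c* (0.66) and *Calcoco2* (0.69), with log2 fold changes of -7.35, -7.24 and -7.92. With 6 libraries in 2 groups, the measure weighs mainly the difference between the groups.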

How the data were processed

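The authors made polyA-selected cDNA libraries with the SMART-Seq v4 kit and deposited estimated counts per gene, without normalization, in 1 table for mESCs and 1 for CPCCs. The labels' processing notes name STAR 2.7 and mm10 with no role. For its single-cell libraries the paper names STAR 2.7 within Partek Flow as the source of gene counts. For the bulk libraries the counter, the strand setting and the division of reads shared between paralogs are not given in the sources used here. Each listed gene had at least 10 counts over its 3 libraries. Of the values of a library, 17.9% to 21.5% were not whole numbers.

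Counts were rounded and the 13001 genes in both tables were filtered with filterByExpr, which removed 530. edgeR 4.0.16 (R 4.3.3) fitted 1 quasi-likelihood model with TMM normalization. The study's own tool, DESeq2 (here 1.42.0), was an alternative. The standard error is the log2 fold change over the square root of F. The fit was tested on simulated counts of 13001 genes, with 200 changed and a dispersion of 0.05 for every gene. It called 46 of 75 genes changed 2-fold, all 62 changed 4-fold and all 63 changed 8-fold. The real data had 61.4% of genes called and S04 standing apart, so these rates need not hold there. At these depths 3 counts, the floor used here, equal 0.298 to 0.464 CPM, and floors cover counting error only. Transcript lengths, coding sequences and shared windows were taken from GENCODE M21. Promoter windows were from RefSeq (GRCm38.p6), in which 8 of the isotypes were used; *Tubb2b* and *Tubb6* were not used there. Positions are those of the tables on GRCm38, where the end is often 1 base past the last. Motifs were searched on both strands. Coding end sequences of the alpha genes are not reported here.

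The isotypes and gene lists were chosen with earlier results of these data known. Named were the 10 isotypes, all other tubulin genes of the tables, the 3 largest called rises and falls of each list and the 3 most similar genes for 2 isotypes. Other genes of a list were named after their values were seen: *Cct5*, *Stmn1*, *Ttl*, *Atat1*, the tubulin cofactors and single markers. The counts of CCT and augmin subunits were not among those planned. Alternatives are named in the closing section. Allele-specific data were not analysed here.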

Additional observations from a re-analysis of the deposited data

How the results depend on the processing

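No paired analysis was possible because the columns of the count tables carry no replicate numbers. The 8 called isotypes kept their direction under DESeq2, upper-quartile normalization, no filter, library sizes over whole tables, missing genes at 0 or 3 counts and leaving out each library, and also with library totals without TMM, an alternative chosen after seeing the data. With at least 10 counts in every sample *Tuba3a* was not tested, and 7 isotypes were called. A 2-fold threshold left 6. Without 1 library between 7 and 8 isotypes, between 55 and 67 genes of the microtubule lists and between 6536 and 7895 of all genes were called. *Tubb5* lost its call without S01 (log2 fold change -0.62) and without S02 (-0.56), and the cause was not tested. Setting missing genes to 0 counts moved the median log2 fold change of all genes to 0.17. It gave *Tuba3b* a log2 fold change of -12.98, and 3 counts gave -8.61, so that the value depends on the fill. With near-identical paralogs summed, 5 of 6 features were called against 8 of 9 isotypes, since *Tuba1a*, *Tuba1b* and *Tuba1c* become 1 feature. Leaving out each library for the sums was also chosen after seeing the data. It gave -0.17 to 0.15 for the sum of these 3 on the log2 scale, with the sign turned without S04 and without S02 (0.037), -0.24 to 0.068 for all 5 alpha isotypes, with the sign turned without S04, and -0.31 to -0.067 for the 5 beta isotypes, and none of these was called. Summing all alpha and all beta genes of the tables was added in the same way, and leaving out 1 library then gave -0.31 to -0.0018 for alpha and -0.50 to -0.24 for beta, which was called without S06 alone.

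In the shares, CPCC minus mESC in percentage points, the difference was -22.5 for *Tubb5* and -9.72 when all beta-tubulin genes were counted, which then include *Tubb4b*. For *Tubb6* it was 16.4, and 20.8 per transcript length. Leaving out 1 library gave 42.3 to 45.5 for *Tuba1a*, -34.4 to -29.9 for *Tuba1b*, -24.5 to -19.0 for *Tubb5* and 14.0 to 17.8 for *Tubb6*. The difference for *Tubb3* was 3.06 and fell to 1.91 without S04, which decides much of its size. Depth limits *Tuba3a* in CPCCs, with at most 16 counts in a library, and *Tuba3b*.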
